A study of Homo sapiens with 6 samples.

Results

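The AP-1 family was followed on 6 oligonucleotide arrays of Panc-1 cells, an established line of human pancreatic adenocarcinoma. All cells were first starved of serum for 24 h. The treated cells then received 5 ng/mL TGFβ for 48 h, whereas the untreated cells received medium without it, with 3 arrays in each group, numbered 1 to 3. Total RNA was measured, and the study used the arrays to ask which genes respond to TGFβ in this line. The members were 10 genes, FOS, FOSB, FOSL1, FOSL2, JUN, JUNB, JUND, ATF3, MAFF and BATF3, and all 23 probe sets annotated to only 1 of them were taken, of 54675 on the array, where 19777 genes had such a probe set. A probe set is a group of short probes that read 1 stretch of transcript.

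AP-1 is a transcription factor made of 2 basic leucine zipper proteins, typically a JUN protein paired with a FOS protein or with another JUN. ATF3 and BATF3 belong to the same superfamily and can pair with JUN proteins, whereas MAFF is a small MAF protein that lacks an activation domain of its own and pairs with FOS or with NRF proteins. Many of these genes are switched on rapidly and briefly by growth factors and stress. AP-1 proteins also cooperate with SMAD proteins, the intracellular carriers of TGFβ signals, at many promoters.

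The 250 bases before the annotated start of transcription are shown for the members whose window held exactly TGACATCA or TGACGTCA. JUN and ATF proteins bind these motifs. The windows are shown because these genes are among those whose expression differed between the groups. The sequences are from RefSeq on GRCh38.p14, printed 5′ to 3′ on the strand of the gene, with the motif in capitals. They are JUN at chr1:58784048-58784297 on the minus strand, ATF3 at chr1:212565157-212565406 on the plus strand, JUND at chr19:18281623-18281872 on the minus strand and MAFF at chr22:38201744-38201993 on the plus strand.
JUN: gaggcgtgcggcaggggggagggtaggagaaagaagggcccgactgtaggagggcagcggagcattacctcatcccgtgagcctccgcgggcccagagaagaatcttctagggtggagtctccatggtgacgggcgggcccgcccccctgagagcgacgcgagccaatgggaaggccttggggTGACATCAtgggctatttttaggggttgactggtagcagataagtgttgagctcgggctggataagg
ATF3: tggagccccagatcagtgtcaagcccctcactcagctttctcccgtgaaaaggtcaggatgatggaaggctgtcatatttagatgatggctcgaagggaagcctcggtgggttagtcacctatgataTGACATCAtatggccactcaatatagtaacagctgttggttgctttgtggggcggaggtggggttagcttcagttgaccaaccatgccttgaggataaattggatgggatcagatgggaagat
JUND: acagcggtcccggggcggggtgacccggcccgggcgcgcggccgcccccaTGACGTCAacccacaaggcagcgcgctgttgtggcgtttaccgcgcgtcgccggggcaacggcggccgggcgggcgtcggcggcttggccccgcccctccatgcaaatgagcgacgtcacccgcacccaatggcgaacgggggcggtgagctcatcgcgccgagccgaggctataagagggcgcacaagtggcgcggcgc
MAFF: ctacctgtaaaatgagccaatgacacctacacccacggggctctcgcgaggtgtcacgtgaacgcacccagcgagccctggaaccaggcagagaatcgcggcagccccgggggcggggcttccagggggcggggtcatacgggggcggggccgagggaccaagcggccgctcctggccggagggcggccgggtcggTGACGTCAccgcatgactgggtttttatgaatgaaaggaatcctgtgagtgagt
The JUN and ATF3 windows each held TGACATCA, a variant of the element bound by dimers of ATF and JUN proteins, with its first base 67 bases before the start in JUN and 123 in ATF3. The JUND and MAFF windows each held TGACGTCA, the cyclic AMP response element, 200 and 54 bases before the start. RefSeq gave a window for 8 member genes, with a second start for ATF3 and MAFF, so that 10 windows were searched on both strands. Only exact matches to a motif were counted, so variant sites in these or other member windows were not marked. None of the 10 held the AP-1 element TGACTCA, which was found in 4.2% of 35116 windows of the same length, the SMAD palindrome GTCTAGAC, found in 0.182%, or the CArG box that serum response factor binds, found in 1.16%. None of these strings contains another. TGACATCA was found in 2.37% of all windows and TGACGTCA in 1.65%. These matches describe the letters of the windows, and no factor was measured on them. FOSL1 and BATF3 had no window in the table used.

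Values are given as log2 of the signal. A probe set was called measured where its mean reached a signal of 100, which is 6.64 on this scale, in at least 1 group, and a gene was given the mean of its measured probe sets. Changes are TGFβ minus untreated, with the standard error of a paired limma fit over all 10115 genes measured and p-values adjusted by Benjamini-Hochberg over them. The labels do not say whether the 3 samples of a group came from separate cultures, so the p-values measure the spread between these samples, which may be technical. Arrays of the same group correlated at 0.995 or higher and arrays of different groups at 0.954 to 0.959. Of the epithelial markers, 5 of 6 were measured, namely EPCAM, KRT7, KRT8, KRT18 and CDH1. Their summed linear signal, with that of the sixth, was 11575 to 11822 untreated and 4310 to 4542 with TGFβ. KRT18 and KRT8, the brightest, weigh most in it. EPCAM, KRT8, KRT18 and CDH1 fell, whereas KRT7 changed by 0.24 and did not pass (adjusted p = 0.0569). By contrast, 0 of 15 markers of fibroblasts, leukocytes, endothelium, acinar and endocrine cells were measured. The 3′ minus 5′ difference of the ACTB control probe sets was 0.55 ± 0.031 untreated and 0.33 ± 0.060 with TGFβ (SD, n = 3), and its part in the results was not tested. In such bulk samples, fewer cells expressing a gene and less RNA per cell cannot be told apart.

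TGFβ-treated Panc-1 cells held more RNA of most AP-1 genes measured and less of JUND. Of the 8 member genes measured, 7 rose and 1 fell, where 27.7% of all genes measured rose and 31.0% fell, so that 58.7% changed in all. JUNB, ATF3, BATF3, JUN, FOSL2 and FOSL1 were each at least 2-fold higher, a size reached in that direction by 2.36% of all genes. The median change of the 8 genes was 1.15, beside -0.01 over all genes measured. The members were chosen with earlier results of these data known, so these shares and medians describe them and do not test the family. FOS and FOSB were not measured. With no limit on the signal, where all 10 members are fitted, 6 rose and 2 fell, and 5303 of all 19777 genes changed.

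**Figure D1:**
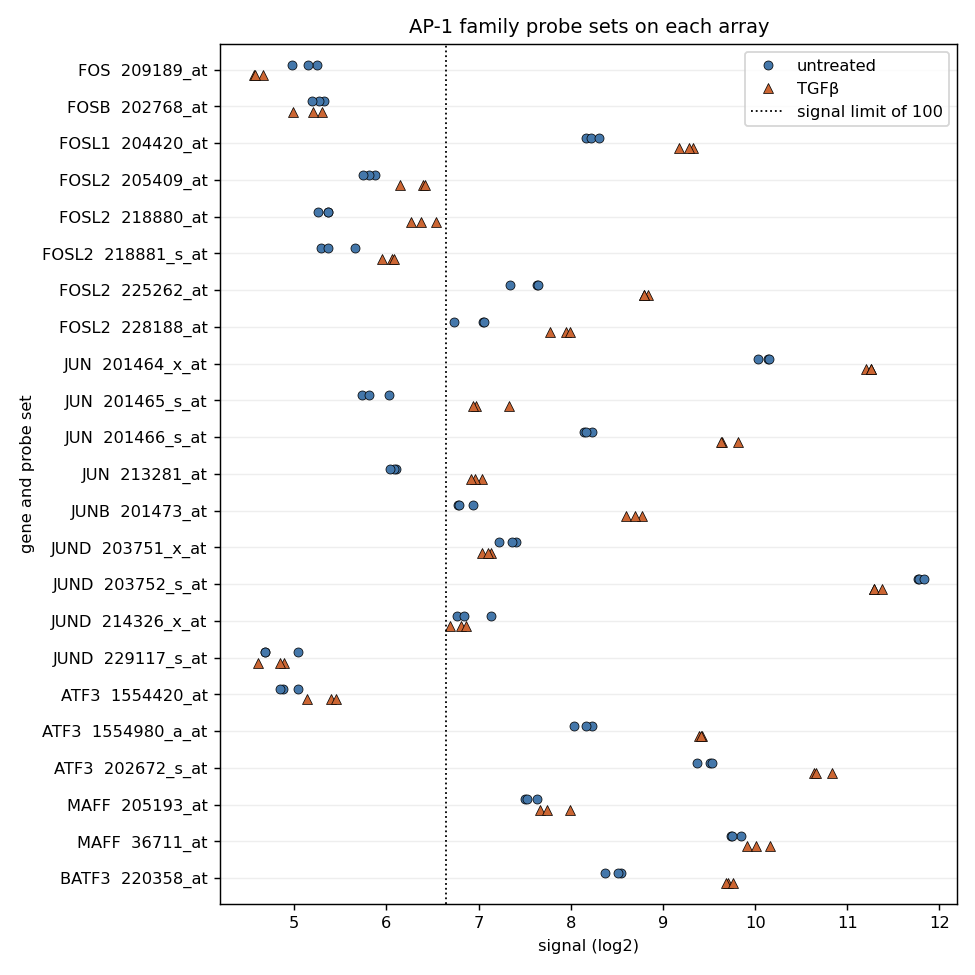
Signal of the 23 AP-1 family probe sets on each array, on a log2 axis, with untreated arrays as circles, TGFβ arrays as triangles and the signal limit of 100 as a dotted line. In 17 probe sets all TGFβ arrays lay above all untreated arrays, in 3 they all lay below, and in 3 the groups overlapped. Among all probe sets on the array, 18.0% lay above in this way and 18.0% below.

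The JUN proteins can form AP-1 with each other or with a FOS protein. JUNB, which often restrains growth where JUN promotes it, showed the largest change of the measured members. Its single probe set read 6.78, 6.79 and 6.93 on untreated arrays and 8.60, 8.77 and 8.70 on TGFβ arrays. The groups were well apart, and the change was 1.86 (SE 0.060, adjusted p = 8.58e-06), a 3.62-fold rise. The differences between same-numbered arrays were 1.77 to 1.98 for JUNB, and the highest of any other measured member was 1.41, in ATF3.

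JUN, the founding member of the family, rose 2.28-fold. Averaged over its 4 probe sets it read 7.53, 7.57 and 7.57 untreated and 8.84, 8.70 and 8.69 with TGFβ, without overlap, a change of 1.19 (SE 0.059, adjusted p = 3.24e-05). All 4 probe sets rose, but by unequal amounts. The change was 0.90 in 213281_at, 1.13 in 201464_x_at, 1.22 in 201465_s_at and 1.52 in 201466_s_at. The mean of 2 of them, 201465_s_at and 213281_at, was over the signal limit only in the TGFβ group, so that these had to be higher there to be counted. The other 2 were over it in both groups. The endings _x_at and _s_at mark probe sets that may also read other transcripts, and 213281_at carries neither.

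JUND, which is expressed more steadily than its relatives in resting cells, was the measured member that fell. Averaged over 3 probe sets it read 8.58, 8.68 and 8.78 untreated and 8.41, 8.34 and 8.45 with TGFβ. The lowest untreated array was above the highest TGFβ array by a small margin, and the change was -0.28 (SE 0.056, adjusted p = 0.00638), or 1.21-fold lower. Its probe sets did not move alike. The brightest, 203752_s_at, fell from 11.79 ± 0.033 to 11.32 ± 0.052 (SD, n = 3), a change of -0.48 (adjusted p = 0.000779). The fall of 203751_x_at was 0.24 (adjusted p = 0.0285), a call lost without replicate 2 (adjusted p = 0.182) and without replicate 3 (adjusted p = 0.104). It was also lost without the signal limit (adjusted p = 0.0787), with median centring (adjusted p = 0.0521) and with the methods' t-test (adjusted p = 0.169). The change was -0.12 in 214326_x_at, whose groups overlapped and which passed only without replicate 1 (adjusted p = 0.210 over all pairs and 0.0194 then), and -0.02 in 229117_s_at, which lay below the limit. All 3 measured probe sets carry an _x_at or _s_at ending. The call of the gene was lost without replicate 2 (adjusted p = 0.0511), and the brightest probe set alone gave -0.48 for the gene.

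The FOS proteins cannot pair with each other and need a JUN partner to bind DNA. FOSL1, also called FRA-1, which lacks the strong activation domain of FOS, had 1 probe set. It read 8.16, 8.22 and 8.31 untreated and 9.33, 9.17 and 9.28 with TGFβ. The groups did not overlap, and the change was 1.03 (SE 0.061, adjusted p = 6.06e-05), a 2.04-fold rise. The same shift of about 1 unit appeared in each same-numbered pair, from 0.95 to 1.17.

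FOSL2, or FRA-2, is the closest relative of FOSL1, and 2 of its 5 probe sets were measured. Their mean was 7.04, 7.34 and 7.35 untreated and 8.39, 8.29 and 8.39 with TGFβ. The first untreated array lay below the other 2, the groups did not overlap, and the change was 1.11 (SE 0.085, adjusted p = 0.000153), a 2.16-fold rise. The measured probe sets changed by 1.27 (225262_at) and 0.96 (228188_at). The other 3 stayed below the limit in both groups and were tested in a fit over all 54613 probe sets, where they rose by 0.51, 0.59 and 1.07. With all 5 averaged the change was 0.88.

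FOS and FOSB, the early and transient FOS genes, were below the limit on every array. FOS read 4.98, 5.25 and 5.15 untreated and 4.56, 4.66 and 4.58 with TGFβ. Every TGFβ array was below every untreated one, and the change of -0.53 (SE 0.075) passed in the fit over all probe sets (adjusted p = 0.00199), although at this dim signal a log2 change is a poor guide to the amount of RNA. With a constant of 16 added to the linear signal it was -0.34. FOSB read 5.32, 5.27 and 5.19 untreated and 4.99, 5.30 and 5.21 with TGFβ, with overlapping groups and a change of -0.10 that did not pass (adjusted p = 0.567). Only 1 time, 48 h, was measured.

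ATF3, a stress-induced factor that represses or activates according to its partner, rose 2.39-fold. Its 2 measured probe sets averaged 8.70, 8.87 and 8.85 untreated and 10.11, 10.03 and 10.03 with TGFβ, without overlap. The change was 1.25 (SE 0.065, adjusted p = 3.76e-05). They rose almost equally, by 1.27 in 1554980_a_at and 1.24 in 202672_s_at. A further probe set, 1554420_at, was below the limit and rose by 0.41 in the fit over all probe sets (adjusted p = 0.0105). This call was lost without replicate 2 (adjusted p = 0.0758) and with the methods' t-test (adjusted p = 0.205).

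BATF3 is known best from dendritic cells, where it pairs with JUN proteins and IRF factors. In Panc-1 cells its probe set read 8.54, 8.51 and 8.37 untreated and 9.70, 9.69 and 9.76 with TGFβ. The groups did not overlap, and the change was 1.24 (SE 0.063, adjusted p = 3.44e-05), a 2.36-fold rise. It was thus close in size to those of JUN and ATF3.

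MAFF had the smallest change of the measured members. Its 2 probe sets averaged 8.62, 8.74 and 8.64 untreated and 9.08, 8.79 and 8.87 with TGFβ. The second TGFβ array was only just above the highest untreated one, and the same-numbered pairs differed by 0.46, 0.05 and 0.24. The change was 0.25 (SE 0.082, adjusted p = 0.0404), or 1.19-fold, and only 36711_at passed by itself (adjusted p = 0.0391 against 0.0620 for 205193_at). The call was lost without replicate 1, where the change was 0.14 (adjusted p = 0.0780), without replicate 3 (adjusted p = 0.0795) and without the signal limit (adjusted p = 0.0693). That of 36711_at was also lost without replicate 1 (adjusted p = 0.0727) or replicate 3 (adjusted p = 0.115), whereas 205193_at passed without replicate 2 (adjusted p = 0.0383). The call of 36711_at was lost as well without the signal limit (adjusted p = 0.0924), with median centring (adjusted p = 0.0600) and with the methods' t-test (adjusted p = 0.216).

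**Figure D2:**
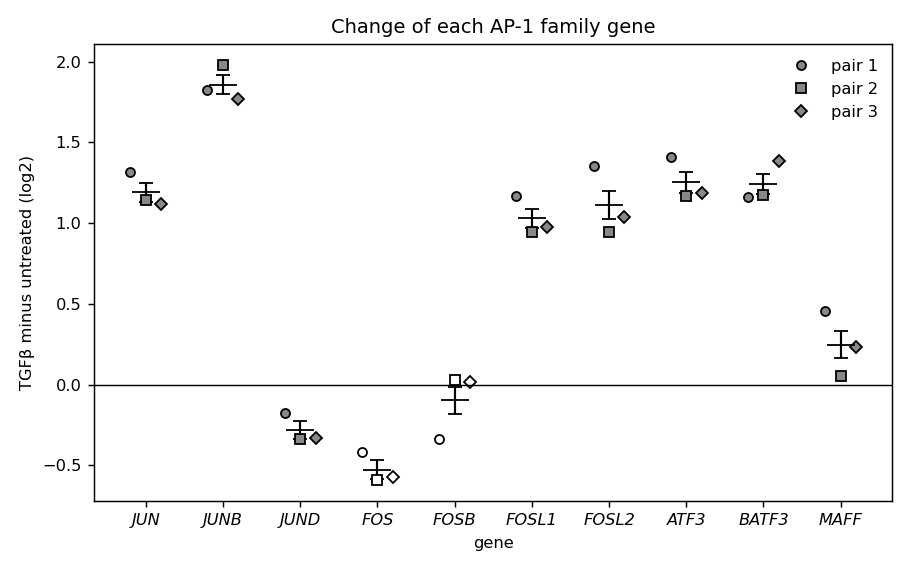
Change of each member gene, TGFβ minus untreated in log2 units, with the mean as a bar, its standard error as whiskers and the 3 same-numbered pairs as points. JUNB had the largest change at 1.86 and JUND, at -0.28, fell, and FOS and FOSB (open points) were below the signal limit and come from the fit without it.

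Of the 23 probe sets, 16 were measured, 14 of them over the limit in both groups. Of the 16, 12 rose, 2 fell and 2 did not pass, where 26.6% of all 19101 probe sets measured rose and 28.5% fell. The 12 include 2 of JUN that were over the limit only with TGFβ, and so had to be higher. Of the 7 below the limit, the fit over all probe sets called 4 higher, 1 lower and 2 neither. Those called higher belong to FOSL2 and ATF3. Among all 54613 probe sets, bright ones included, 9.22% were higher and 11.0% lower, and no share was taken for those below the limit alone. All TGFβ arrays were above all untreated arrays in 17 of the 23, where 18.0% of all probe sets showed this. They were all below in 3, where the share among all was likewise 18.0%. The 17 include the 4 probe sets of JUN, the 5 of FOSL2 and the 3 of ATF3, which are repeated readings of the same genes. The 2 dimmer probe sets of JUND and the single one of FOSB overlapped.

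**Figure D3:**
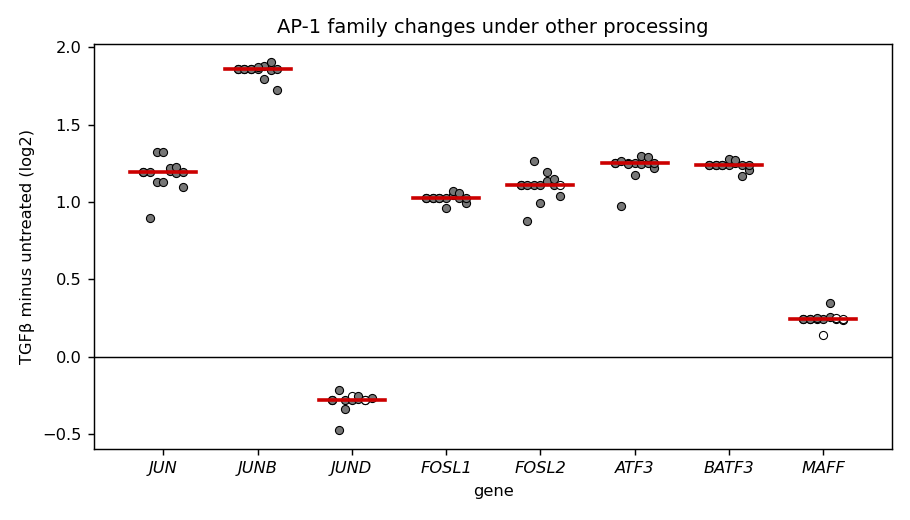
Change of the 8 measured member genes in log2 units, with the reported value as a red bar and each alternative way of processing as a point, filled where the adjusted p was below 0.05 and open where it was not. JUN, JUNB, FOSL1, ATF3 and BATF3 have filled points only, whereas MAFF has 4 open ones, JUND has 2 and FOSL2 has 1. The JUN point without _x_at and _s_at probe sets rests on 1 probe set that was over the signal limit only with TGFβ.

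Of 23 other zipper proteins that pair with or resemble AP-1, 15 were measured, 6 rose, 3 fell and 6 did not pass, with a median change of 0.09. The 60% of them that changed was near the 58.7% of all genes measured. Among the falls was CREB5, whose only measured probe set was over the limit only in untreated cells, and so had to be lower with TGFβ. JDP2, which binds JUN and restrains AP-1, rose by 0.63 (SE 0.093, adjusted p = 0.00188), though by 0.35 without the signal limit. NFE2L3, a partner of the small MAF proteins, rose by 0.41 (adjusted p = 0.00866), a call lost without _x_at and _s_at probe sets (adjusted p = 0.0672), and 1 of its 2 measured probe sets was over the limit only with TGFβ. ATF2, a partner of JUN under stress, fell by 0.33 (adjusted p = 0.00548) and by 0.56 without those probe sets. DDIT3, or CHOP, which pairs with C/EBP proteins, fell by 0.32 (adjusted p = 0.00207). Without replicate 2 the list had 5 genes changed in place of 9.

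Of 33 kinases and factors that act upstream of AP-1, 23 were measured, 7 rose, 5 fell and 11 did not pass, with a median change of -0.04. The 52.2% that changed was below the 58.7% of all genes. The ternary complex factor ELK3 rose by 0.85 (SE 0.065, adjusted p = 0.000150). MRTFA, an actin-sensing coactivator of serum response factor, rose by 0.67 (adjusted p = 0.000114). Its same-numbered pairs differed almost equally, by 0.66, 0.68 and 0.67. The value of 1.05 without replicate 2 came from a different choice of probe sets, since the signal limit was applied anew there. For ELK3 and MRTFA, 1 of the 2 measured probe sets was over the limit only with TGFβ, and so had to be higher there to be counted. MAP2K6, a kinase that activates p38, fell by 1.30 (SE 0.069, adjusted p = 4.07e-05), and MAP3K1, which acts above the JNK kinases, fell by 0.79 (adjusted p = 8.98e-05). The single measured probe set of MAP2K6 was over the limit only in untreated cells, and so had to be lower with TGFβ. Without the signal limit the 2 falls were 0.80 and 0.52.

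Of 18 genes listed for the turnover and restraint of AP-1, 14 were measured, 5 rose, 5 fell and 4 did not pass, with a median change of -0.09, beside 27.7% of all genes that rose and 31.0% that fell. ZFP36L1, which promotes the decay of short-lived RNAs, rose by 1.02 (SE 0.087, adjusted p = 0.000229), and TRIB1, an adaptor of the COP1 ubiquitin ligase, rose by 0.69 (adjusted p = 0.000127). They rose by 0.45 and 0.36 without the signal limit. DUSP6, a phosphatase of ERK, fell by 0.62 (adjusted p = 0.000363), and DET1, which acts with COP1 in the degradation of JUN, fell by 0.50 (adjusted p = 0.000482).

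Other immediate early genes are switched on by the same stimuli as FOS and JUN. Of 30 listed, 23 were measured, 16 rose, 4 fell and 3 did not pass, with a median change of 0.54, beside 27.7% of all genes that rose and 31.0% that fell. RHOB, a small GTPase, rose by 1.77 (SE 0.053, adjusted p = 7.42e-06), although by 0.87 without the signal limit, and IER3, a regulator of cell survival, rose by 1.62 (adjusted p = 1.44e-05). PHLDA1 fell by 0.97 (adjusted p = 3.73e-05), or by 0.50 when its brightest probe set stood for it. EGR1, a zinc finger factor, fell by 0.46 (adjusted p = 0.0122), and by 0.30 without replicate 1.

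Of 42 genes known as AP-1 targets, 26 were measured, 19 rose, 3 fell and 4 did not pass, with a median change of 0.50, beside the same shares of all genes. For 3 of the 26, no probe set was over the limit in both groups. Those of PLAUR and MMP14, which rose, were over it only with TGFβ, and that of NTS, which fell, only in untreated cells. The limit thus fixed the direction of these 3 in advance. HMGA2 and HBEGF, which also rose, each had 1 of 2 measured probe sets over it only with TGFβ. HMOX1, which degrades haem, rose by 1.69 (SE 0.063, adjusted p = 1.32e-05). The cytokine IL11 rose by 1.58 (adjusted p = 8.23e-06), but 1 of its 2 measured probe sets was over the limit only with TGFβ. That probe set, which had to be higher, gave 2.62, the value of the gene without _x_at and _s_at probe sets. The other gave 0.53, the value with the limit required in both groups. The 2 leading falls were in NQO1, a quinone reductase, at -0.58 (adjusted p = 0.000206) and in TXNRD1, a thioredoxin reductase, at -0.51 (adjusted p = 0.000394), the latter -0.23 without the signal limit.

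**Figure D4:**
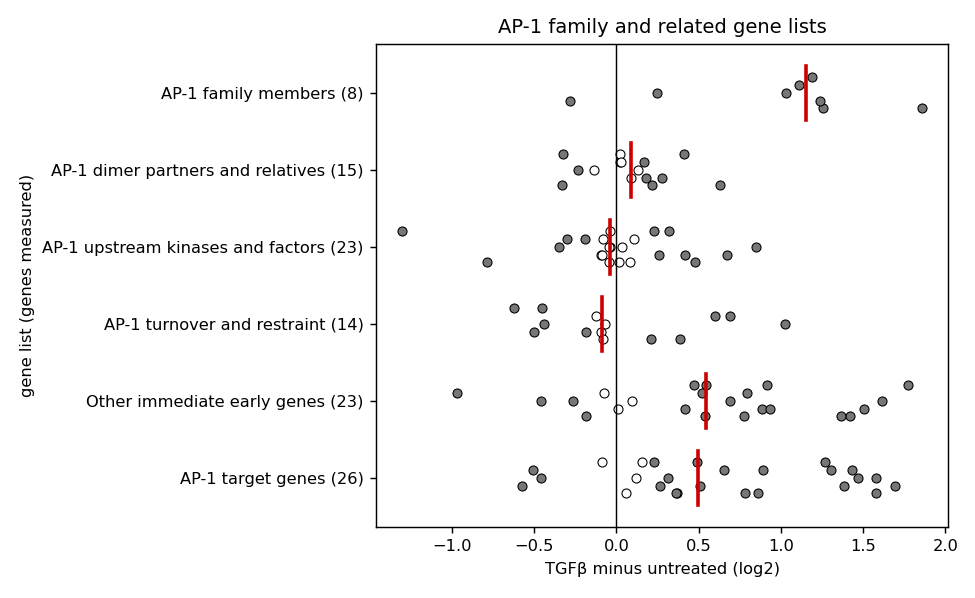
Change of each measured gene, TGFβ minus untreated in log2 units, for the AP-1 members and 5 related lists, with genes past an adjusted p of 0.05 filled, the rest open and the median of each list as a red bar. The medians were 1.15 for the members, 0.54 for other immediate early genes and 0.50 for AP-1 target genes, and between -0.09 and 0.09 for the other 3 lists.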

How the data were processed

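The deposited table holds log2 expression values that the authors made from Human Genome U133 Plus 2.0 arrays of 3 TGFβ-treated and 3 untreated samples. The software, background correction and normalisation behind these log2 values are not given in the sources used here, and the number of arrays limits the precision. Array medians were 5.14 to 5.21. The sources differ on the unit of the dose, and that of the labels was used.

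After 62 control probe sets were set aside, 54613 remained, and 19101 reached a mean signal of 100 in at least 1 group. Probe sets with 1 annotated gene were averaged per gene on the log2 scale, which gave 10115 genes, with symbols updated through Entrez identifiers. Expression was compared with limma 3.58.1 in R 4.3.3. Replicate numbers entered as a block, since a paired test is the one the methods describe, with 2 residual and 4.12 prior degrees of freedom, and a Benjamini-Hochberg adjusted p below 0.05 as the threshold. The deviations of same-numbered samples correlated at -0.24, 0.24 and 0.11, so that the values do not show that the numbers pair the samples. The procedure was tested on simulated data. Promoter windows were searched and figures drawn in Python.

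The members, the 5 related lists and the motifs were chosen with earlier results of these data known. The naming rule took all members and, from each other list, up to 5 rises and 5 falls that passed with all pairs moving that way, and the text describes the first 2 of each. Alternatives covered the block, the signal limit, normalisation, an added constant of 16, the variance model, the probe sets used, each replicate left out, the methods' t-test with adjustment, and a 1.5-fold threshold.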

Additional observations from a re-analysis of the deposited data

How the results depend on the processing

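Across the alternatives run, the number of member genes called higher stayed between 5 and 7 and that of member probe sets called higher between 8 and 15. JUN, JUNB, FOSL1, ATF3 and BATF3 passed under all 14 alternatives. For JUN, 1 of these, without _x_at and _s_at probe sets, rested on 213281_at alone. That probe set was over the limit only with TGFβ, and so had to be higher. FOSL2 passed under all but the methods' t-test with adjustment (adjusted p = 0.0504). That t-test also lost the calls of JUND (adjusted p = 0.0839), MAFF (adjusted p = 0.239) and FOS (adjusted p = 0.121). Without the replicate block, 7 member genes were higher and 1 lower, as with it, and 6265 genes changed in all against 5934. The pairing changed no call of a member gene, whereas MAFF 205193_at passed without it (adjusted p = 0.0424) and CREB1 did not (adjusted p = 0.0814).

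Calls of lower expression were less stable. In place of 1 member gene lower there were 2 without the signal limit and 0 without _x_at and _s_at probe sets, where JUND has no measured probe set, with the methods' t-test and at a 1.5-fold threshold, and 0 to 1 with a replicate left out. In place of 2 probe sets lower there were 1 with median centring, 0 without _x_at and _s_at probe sets, 1 with the t-test, 0 at 1.5-fold, and 1 to 3 with a replicate left out. That t-test, which rests on 2 degrees of freedom, called 2414 genes, and left 1 of 9 dimer partners, 6 of 12 upstream genes and 6 of 10 turnover genes changed. At 1.5-fold these lists had 1, 4 and 4, and the immediate early genes and targets 12 each in place of 20 and 22, as they also had without _x_at and _s_at probe sets. With a replicate left out the partners had 5 to 10.

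The direction turned in 5 cases, for which the cause was not tested. FOSB, at -0.10, ranged from -0.16 to 0.022 with a replicate left out, and was higher without replicate 1. JUND 229117_s_at ranged from -0.11 to 0.047 and was higher without replicate 1 (0.012) and without replicate 2. CREB5, lower by 0.24, became 0.10 without the signal limit, and ITCH, higher by 0.38, became -0.16 without _x_at and _s_at probe sets. Of the other single values under an alternative, 900 kept their side of the threshold, 76 lost it and 5 gained it.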
